A study of Mus musculus with 5 samples.

Results

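A set of 226 genomic regions carried PU.1 signal in plasmacytoid dendritic cells (pDCs) and almost none in conventional dendritic cells (cDCs), out of 67237 regions measured in mouse cells. PU.1 was mapped by chromatin immunoprecipitation and sequencing (ChIP-seq) in cDCs and pDCs that came from Flt3L cultures (strain given as C56BL/6), with 2 replicate libraries per cell type, and an input library of unprecipitated chromatin came from cDCs alone. The labels do not say how the cell types were separated, or whether the replicates came from separate cultures, so the errors and p-values measure the spread between these libraries, which may be technical. No genotype, treatment or age is given that would set the groups apart, so they are compared as cell types of 1 culture system. The measurements are of PU.1 on chromatin and not of RNA, so the labelled cell types could not be checked against marker expression.

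PU.1, encoded by Spi1, is an ETS-family transcription factor that binds purine-rich DNA around a GGAA core and takes part in the development of myeloid cells, B cells and dendritic cells. It often acts with partner factors such as IRF4 and IRF8, and its level and partners are known to steer lineage choice. pDCs secrete type I interferon and express several genes that are otherwise typical of lymphoid cells, whereas cDCs specialise in antigen presentation.

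Regions were chosen by their counts, in CPM (counts scaled to a common library total). Reads had been counted in windows of 10 bp, and windows separated by up to 100 bp formed 1 region. A region was kept if at least 1 window reached 4 CPM in both pDC libraries and stayed at or below 1 CPM in both cDC libraries. All 4 PU.1 libraries thus entered the choice, and the pDC against cDC values of these regions are a description without a test. The minimum of 4 CPM stood for 29.1 and 22.6 counts in pDC replicates 1 and 2, and the maximum of 1 CPM for 9.88 and 10.3 counts in cDC replicates 1 and 2. In total 395 windows met the rule, and 126 regions held 1 such window. The window with the highest value of the smaller pDC library is called the core window of a region.

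The libraries held between 5656601 (pDC replicate 2) and 10345955 (cDC replicate 2) counts after 146 windows with 1000 or more input counts had been left out. Those windows took 17.98% of the counts of pDC replicate 2 and between 9.15% and 10.5% of the other PU.1 libraries, so pDC replicate 2 stood apart. The share of windows at or below 1 CPM was 24.6% in pDC replicate 1, 16.4% in pDC replicate 2, 14.96% in cDC replicate 1 and 16.4% in cDC replicate 2.

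Sequence was at hand for RefSeq promoters of the same build (GRCm38.p6, whose chromosomes are those of mm10), and 1 of 215 regions on chromosomes in that table overlapped a promoter. That was 0.47%, against 7.99% of all 65187 regions on those chromosomes. With the cell types exchanged in the rule, 0 of 64 regions overlapped a promoter, and these shares were not tested. The overlapping member lay at the transcription start of 2900041M22Rik. Its promoter is shown because it is the only stretch of a pDC-restricted region whose letters were available. Capitals mark the 46 bases, chr11:117611251-117611296 on the plus strand, that belong to the region. The promoters of Fcmr, whose member lies 1.27 kb upstream of the start, and of Gpr183, whose member lies 4.46 kb upstream, are shown beside it for contrast, with capitals for the bases of windows listed in the count table. They span chr1:130865527-130865826 (plus strand) and chr14:121965144-121965443 (minus strand).
2900041M22Rik: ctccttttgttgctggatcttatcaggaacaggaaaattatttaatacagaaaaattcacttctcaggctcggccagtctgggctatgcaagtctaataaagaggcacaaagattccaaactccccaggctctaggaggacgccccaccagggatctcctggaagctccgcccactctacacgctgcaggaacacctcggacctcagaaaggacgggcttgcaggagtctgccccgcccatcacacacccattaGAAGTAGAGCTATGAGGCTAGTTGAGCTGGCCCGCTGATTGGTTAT
Fcmr: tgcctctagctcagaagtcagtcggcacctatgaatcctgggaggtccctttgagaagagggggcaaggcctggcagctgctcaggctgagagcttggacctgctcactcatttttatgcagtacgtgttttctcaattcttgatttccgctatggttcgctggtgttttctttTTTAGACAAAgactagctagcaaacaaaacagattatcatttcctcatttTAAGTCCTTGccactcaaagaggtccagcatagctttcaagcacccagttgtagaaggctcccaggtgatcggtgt
Gpr183: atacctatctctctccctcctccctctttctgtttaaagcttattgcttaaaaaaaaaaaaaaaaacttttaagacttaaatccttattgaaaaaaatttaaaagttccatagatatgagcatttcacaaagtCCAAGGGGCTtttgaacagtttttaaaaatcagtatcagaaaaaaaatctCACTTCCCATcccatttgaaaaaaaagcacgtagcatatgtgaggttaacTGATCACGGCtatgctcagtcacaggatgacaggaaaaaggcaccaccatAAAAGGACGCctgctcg
The letters GAGGAAG, a common core of PU.1 sites, were searched on both strands and were found in none of the 3 promoters, while 13.6% of 32851 RefSeq promoters of 300 bases hold them. The Runx letters TGTGGT (16.8% of promoters) and the AP-1 letters TGANTCA (7.81%) were also absent from all 3, and the E-box CAGCTG (16.3%) occurred 1 time, in the Fcmr promoter. These are letter matches in short stretches that mostly lie outside the bound regions. Other forms of PU.1 sites were not searched. The shorter GGAA core stands on at least 1 strand of each of the 3 promoters, so absence of GAGGAAG does not mean absence of PU.1-type sites.

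The Fcmr promoter itself had little signal, between 1.06 and 1.65 CPM in the pDC libraries and between 0.51 and 0.77 CPM in the cDC libraries, whereas its upstream member reached 13.6 and 8.31 CPM in pDCs. At Gpr183, which encodes a chemotactic receptor for oxysterols, the promoter was bound in both cell types. Its strongest window had 6.04 and 5.66 CPM in pDCs and 2.93 and 3.77 CPM in cDCs. The upstream member, inside the Ubac2 span, had 5.36 and 4.07 CPM in pDCs against 0.71 and 0.87 CPM in cDCs. These 2 genes were shown for members that lie upstream of the promoter, so that position is not a result. Their listed promoter windows also had more signal in pDCs than in cDCs.

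Most of the 226 regions lay near the lower limit of pDC signal that the rule sets. At the core window pDC replicate 1 ranged from 4.12 to 24.9 CPM with a median of 6.52, and pDC replicate 2 from 4.07 to 13.4 CPM with a median of 4.95. The cDC libraries had medians of 0.61 and 0.77 CPM, with highest values of 0.91 and 0.97. In counts, the pDC medians were 47.5 and 28 and the cDC medians 6 and 8. Of the 226 regions, 143 lay at 5 CPM or less in a pDC library and 12 (5.31%) reached 8 CPM in both. Among 10950 regions with a window at 4 CPM or more in all 4 libraries, called shared regions here, 49.3% reached 8 CPM in both pDC libraries. The fold of mean pDC over mean cDC CPM had a median of 9.13 and ran from 4.45 to 42.9 over the 224 regions with more than 3 cDC counts, and the rule itself sets a fold of at least 4.

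**Figure D1:**
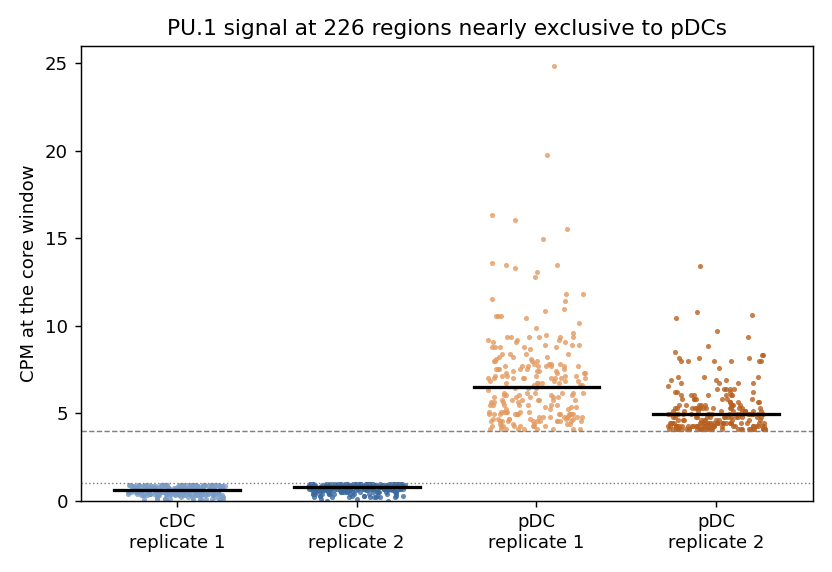
CPM at the core window of each of the 226 regions (points) in the 4 PU.1 libraries, with black bars at the medians and lines at 4 CPM (dashed) and 1 CPM (dotted). The pDC medians are 6.52 and 4.95 CPM and the cDC medians 0.61 and 0.77 CPM, and the rule sets the gap between the cell types.

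The pDC replicates differed within the set. Replicate 1 had the higher CPM in 184 of 226 regions, and the ratio of replicate 1 to 2 had a median of 1.30. Over all windows at 4 CPM or more in both pDC libraries the median ratio was 1.06. The input, which the rule used only to leave out windows of 1000 or more counts, had few counts at these sites. Its library held only 704301 counts. In CPM its mean at the core windows was 2.26, above the 0.58 and 0.69 CPM of the cDC libraries. The core windows had 1.59 input counts on average (95% exact Poisson interval 1.43 to 1.76, counting error only), against 2.14 over all windows, and 53 core windows had 0 input counts and 3 had more than 5. Core windows of shared regions had 3.04 input counts on average, and those of regions chosen with the cell types exchanged had 2.36. The input came from cDCs, so it does not measure the background of pDCs.

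Near absence of PU.1 from cDCs was the end of a continuous range. Of 14077 regions at 4 CPM or more in both pDC libraries, the larger cDC value, taken at the window where it was lowest, was at most 1 CPM in 226 (1.61%) and between 1 and 2 CPM in 678 (4.82%). It lay between 2 and 4 CPM in 3314 (23.5%), between 4 and 8 CPM in 8001 (56.8%) and above 8 CPM in 1858 (13.2%). No gap separated the chosen regions from the next ones. Just inside the pDC minimum were the members in the Tbc1d8 and Ccdc150 spans and near Atp6v1g3, each at 4.07 CPM in the smaller pDC library, and just outside were regions in the Grm4 span and near Pthlh and Trim72 at 3.98 CPM. On the cDC side the members near Optc, Zfp648 and Camk1g (0.97 CPM) and the regions in the Qsox1 and H60b spans and 18.7 kb from 1700056E22Rik (1.01 CPM) lay on either side of the maximum.

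**Figure D2:**
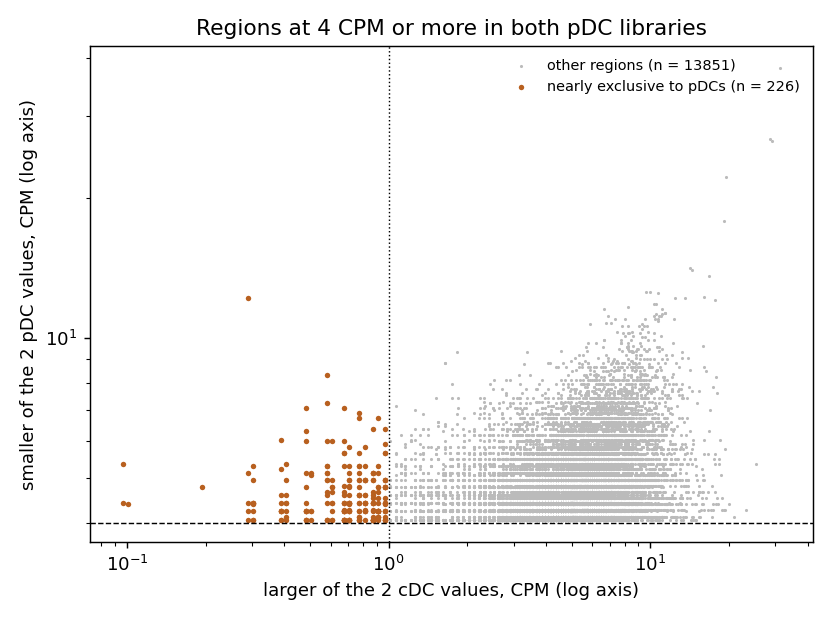
Smaller pDC value against larger cDC value (CPM, both axes logarithmic) for the 14077 regions at 4 CPM or more in both pDC libraries, each at its window with the lowest cDC value, with the 226 members in orange left of the dotted line at 1 CPM. The members form the left tail of 1 cloud, and 56.8% of the regions lie between 4 and 8 CPM in cDCs.

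Restriction to pDCs did not always cover a whole region. In 100 of the 226 regions every listed window was at or below 1 CPM in both cDC libraries, and 20 had a window above 2 CPM in a cDC library. Of 3 regions with a cDC window above 4 CPM, the member in the span of Pde6c, a cone phosphodiesterase gene, reached 10.3 CPM in a cDC library elsewhere in its 560 bp. The others lay in the span of Dgkg (5.87 CPM) and near Wscd2 (4.16 CPM). In 2 of the 226 another window reached 4 CPM in all 4 libraries, so these also counted as shared.

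Member regions had a median width of 260 bp and a range of 160 to 660 bp, against medians of 360 bp for shared regions and 210 bp for all regions. Every listed window had at least 33 counts over the 5 libraries. Whether low cDC counts affect the width of a region was not tested. The widest was the 660 bp region 230 kb from Zfp462, a zinc-finger gene, with 9.34 and 7.07 CPM in pDCs, and the next were 560 bp wide, in the spans of Hmcn1 and Pde6c.

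The strongest member lay 13.2 kb from Appl2, which encodes an endosomal adaptor protein (chromosome 10, 83661951 to 83662410). It had 24.9 and 13.4 CPM in the pDC libraries against 0.51 and 0.39 CPM in the cDC libraries, a 42.9-fold difference in means. In counts this was 181 and 76 against 5 and 4, so the pDC libraries lay far apart from each other and farther still from both cDC libraries.

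The members ranked directly after it by the smaller pDC value lay outside protein-coding gene spans, while several others of the first 15 lay inside them. The second was 138 kb from Suclg2, a subunit gene of succinate-CoA ligase, and 1.06 kb upstream of the transcript AY512915, with 14.97 and 10.8 CPM in pDCs against 0.71 and 0.39 CPM in cDCs. The third lay 43.3 kb from Foxo6, a forkhead factor gene (10.6 and 10.4 against 0.10 and 0.77 CPM). The next lay 483 kb from Mef2c, which encodes a MADS-box transcription factor (15.5 and 9.72 against 0.71 and 0.77 CPM). Here the named gene is only the nearest span and need not be the one a site acts on.

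Several of the strongest members lay inside gene spans. The region in the span of Hfm1, a meiotic helicase gene (chromosome 5, 106891751 to 106892060), had 19.8 and 9.37 CPM in pDCs against 0.40 and 0.77 CPM in cDCs. In the span of Dag1, the dystroglycan gene, the values were 9.20 and 10.6 against 0.10 and 0.97 CPM, and within Fstl4 11.0 and 8.84 against 0.51 and 0.97 CPM. Fcmr, the Fc receptor gene for IgM, had a strong member 1.27 kb outside its span. That region (chromosome 1, 130864301 to 130864560) had 13.6 and 8.31 against 0.81 and 0.87 CPM.

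The other members of the first 15 had pDC values between 7.96 and 16.3 CPM. They lay in the spans of Slc25a13, a mitochondrial carrier gene, Prkag2, a regulatory subunit gene of AMP-activated kinase, Dlg1, a scaffold gene, and Phc1, a Polycomb gene. The rest lay 24.0 kb from Fhl4, 658 kb from Gm44812 and 12.0 kb from Lamc1, a laminin gene. At Phc1 the cDC libraries had 1 and 2 counts against 79 and 45 in pDCs.

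On the gene lists used here, 7 genes had a member in their span or within 10 kb of it. Of these, 5 were on the B cell or the T and NK cell list. Dntt, among the 5, was also on the pDC identity list. With 10 kb added on both sides of the gene span, 2 of 30 B cell genes and 3 of 27 T and NK cell genes held a member. The pDC identity list had 1 of 48, the cDC identity list 1 of 46 and the dendritic cell and myeloid regulators 1 of 42. Of all 21887 protein-coding genes, 156 (0.713%) did. The lists of macrophage and neutrophil genes, erythroid, megakaryocyte and mast cell genes, MHC class II presentation, Toll-like receptors and interferon, chemokine receptors and housekeeping genes had 0. With the cell types exchanged in the rule (64 regions), 1 B cell gene, 0 T and NK cell genes, 1 cDC identity gene and 0 pDC identity genes held a region. The dendritic cell and myeloid regulators, the macrophage and neutrophil list and the Toll-like receptor and interferon list then had 1 each. These are counts of 1 to 3 genes, and no list was tested. The lists were chosen with earlier results of these data known, so a lean towards a list cannot be read from them.

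On the B cell list, Dntt, the DNA nucleotidyltransferase of lymphoid progenitors and also a pDC identity gene, had a member 2.67 kb outside its span (chromosome 19, 41026551 to 41026810). Its core window had 5.08 and 4.42 CPM in pDCs against 0.51 and 0.97 CPM in cDCs. Ebf1, a transcription factor gene of the B lineage, had a member inside its span (chromosome 11, 44881201 to 44881360) at 4.26 and 4.95 against 0.40 and 0.87 CPM. Both lay near the minimum that the rule sets.

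On the T and NK cell list, the member near Cd8b1, the CD8 beta chain gene, lay 2.11 kb outside the span (5.63 and 5.13 CPM in pDCs, 0.10 and 0.87 CPM in cDCs). The member 0.998 kb outside Cd2, an adhesion receptor gene, had 4.94 and 4.07 against 0.61 and 0.48 CPM. The member 5.10 kb from Lat, a T cell receptor adaptor gene, had 8.79 and 4.24 against 0.30 and 0.48 CPM, and it lies in the span of the neighbouring gene Spns1. All 3 had pDC values above both cDC values by the rule, and the pDC replicates lay closest together at Cd8b1.

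Among the other lists, Cebpb, a transcription factor gene of myeloid cells, had a member 2.40 kb outside its span (chromosome 2, 167686401 to 167686560) at 7.00 and 4.77 CPM in pDCs against 0.51 and 0.97 CPM in cDCs. Tbc1d8, on the cDC identity list, had a member inside its span (chromosome 1, 39381051 to 39381460) at 7.41 and 4.07 against 0.30 and 0.87 CPM. Of the listed genes, Tbc1d8 was the only one from the cDC identity list with a member within 10 kb. With 50 kb on both sides, the genes added included Cd8a, Tex2, Notch2, Runx3, Tcf12, Blnk, Marco and Cmklr1, where 1.64% of all protein-coding genes held a member.

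Members were more often far from transcription starts than shared regions or all regions were, but not more often than regions restricted to cDCs. Of 215 members on chromosomes in the promoter table, 7 (3.26%) had their centre within 1 kb of a RefSeq transcription start, against 16.1% of shared regions and 14.4% of all regions. Within 5 kb the shares were 15.3%, 31.5% and 29.0%. The median distance was 22.4 kb for members, 13.1 kb for shared regions and 14.8 kb for all. The share inside a protein-coding gene span was alike, at 54.0% (122 of 226), 54.5% and 54.4%, while 22.1%, 10.9% and 12.5% lay more than 50 kb from any span. The reverse set, regions at 4 CPM or more in both cDC libraries and at most 1 CPM in both pDC libraries (64 regions), had 3.13% within 1 kb of a start and 18.8% more than 50 kb from a span. Its share within 5 kb was 10.9%, and its median distance was 25.8 kb. Distance from starts was thus not particular to the pDC-restricted regions, and the differences between sets were not tested.

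**Figure D3:**
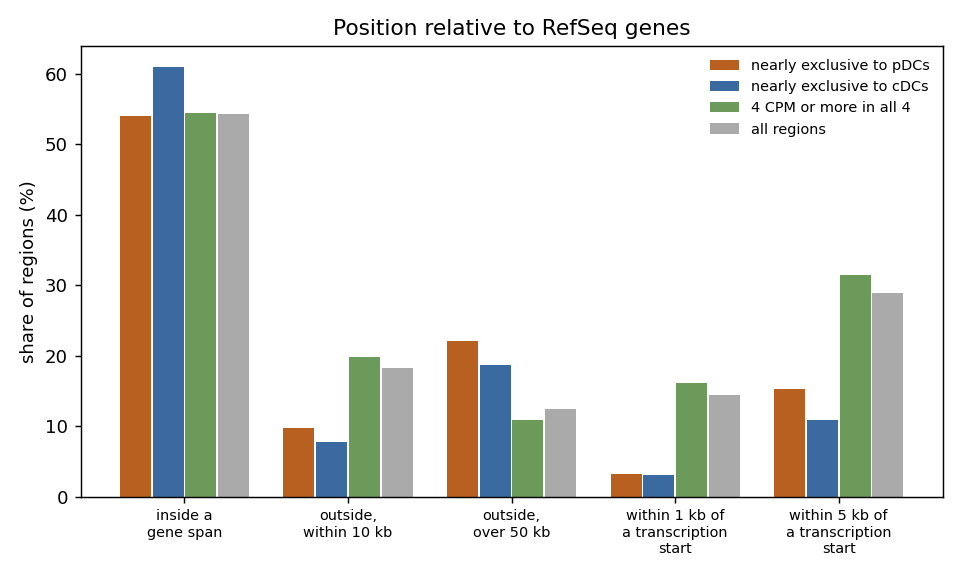
Share of regions (%) by position relative to RefSeq genes for the 226 members, the 64 regions nearly exclusive to cDCs, the 10950 shared regions and all 67237 regions. Both cell-type-restricted sets have smaller shares near transcription starts (3.26% and 3.13% within 1 kb) than shared regions (16.1%).

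For members close to a start, the signal at the nearest promoter was read as well. By the core window, 33 members lay within 5 kb of a start, 15 upstream and 18 downstream. In 24 of the 33 the nearest promoter had no window in the count table, and in 1, Gpr183, a promoter window reached 4 CPM in both pDC libraries. The same shares were not taken for other regions near a start, so they cannot be called particular to members. The closest were 2900041M22Rik (0.058 kb downstream), Mexis (0.277 kb downstream) and Gm35204 (0.444 kb downstream). At 2900041M22Rik the member had 4.67 and 4.24 CPM in pDCs against 0.91 and 0.97 CPM in cDCs. At Mexis, it had 7.96 and 5.48 against 0.30 and 0.97 CPM.

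Of the 226 members, 17 lay in 8 chains of members at most 50 kb apart, a number that depends on how many regions the set holds and was not tested. A chain of 3 spanned 13.1 kb of chromosome 17 (45285701 to 45298760), a stretch that holds the start of Gm35204. Pairs lay near Anxa3 (4.96 kb), Camk1g and Fbxl17 and at Dym, Abca4, Prkag2 and Tenm4. A shared region lay within 50 kb of 41.2% of members, of 65.6% of the cDC-restricted regions and of 62.8% of all regions. Chromosome 5 held 25 members (11.1%, against 6.07% of all regions) and chromosome 1 held 23 (10.2% against 7.42%), and the X chromosome held 1.

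The gene loci with 3 members were Tenm4 and Nav2, which encode large proteins of neuronal development, and Dym. In Tenm4 the members had between 4.24 and 5.63 CPM in pDCs and between 0.40 and 0.97 CPM in cDCs. The strongest of Nav2 had 7.00 and 7.96 CPM in pDCs against 0.10 and 0.48 CPM in cDCs, with pDC replicate 2 the higher. Of the Dym members on chromosome 18, 1 lies 0.185 kb outside the gene span, and the strongest had 7.14 and 6.72 against 0.51 and 0.19 CPM.

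The choice was also made with 1 replicate per cell type, so that the other replicate could be read without having entered it. Of 1131 regions chosen on replicate 1 alone, 97.9% had more signal in pDC replicate 2 than in cDC replicate 2. Their median was 3.18 CPM in pDC replicate 2 and 0.97 CPM in cDC replicate 2, against 5.22 and 0.71 CPM in the libraries used for the choice, and 157 (13.9%) also met the rule in replicate 2. Of 488 regions chosen on replicate 2 alone, 96.9% were higher in pDC replicate 1 than in cDC replicate 1, with medians of 4.94 and 0.91 CPM, and 195 (40.0%) met the rule there. The direction carried over in nearly all regions, while near exclusivity by the thresholds carried over in a minority. Regions chosen by the reverse rule, as restricted to cDCs, kept their direction in 97.0% of 1264 (replicate 1) and 99.0% of 205 (replicate 2). Keeping the direction was thus not particular to the pDC-restricted regions, and the share over all regions was not taken. With 1 held-out library per cell type no test was possible.

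**Figure D4:**
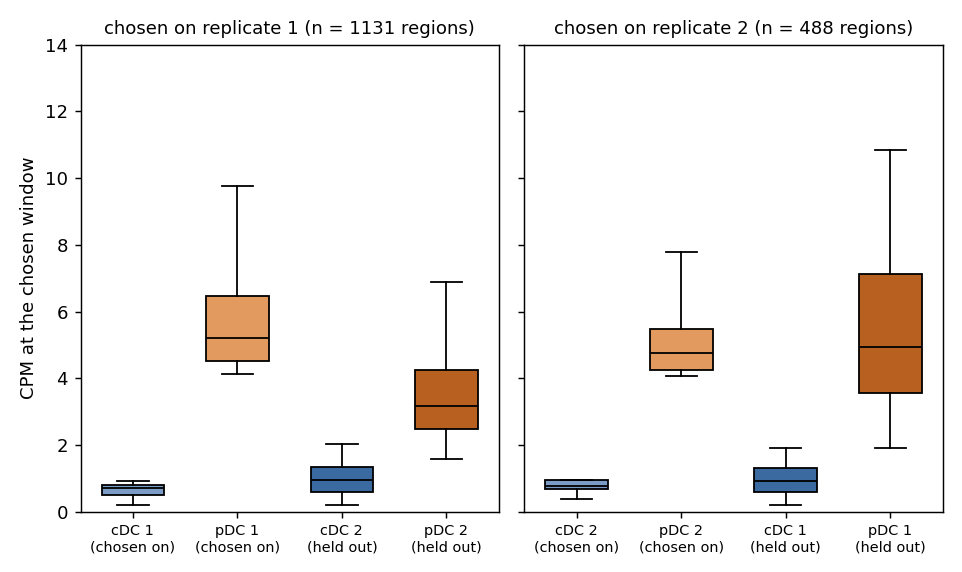
CPM at the chosen window for regions chosen on replicate 1 (left) or replicate 2 (right) alone, in the libraries used for the choice and in the held-out ones (boxes: quartiles with medians, whiskers: 5th to 95th percentile). Held-out pDC medians of 3.18 and 4.94 CPM lie above held-out cDC medians of 0.97 and 0.91 CPM.

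The split between regions restricted to pDCs and to cDCs depended on the libraries and limits. By the full rule there were 226 and 64, and with pDC replicate 1 as the only pDC library there were 764 and 802. Leaving out pDC replicate 1 gave 302 and 110. For cDC replicate 1 the numbers were 335 and 125, and for cDC replicate 2 they were 379 and 154. With at most 2 CPM in the other cell type in place of 1 CPM, the numbers were 904 and 865. Regions chosen as cDC-restricted on replicate 1 had a median of 2.12 CPM in pDC replicate 2, against 0.97 CPM in cDC replicate 2 at the regions chosen as pDC-restricted. Chosen on replicate 2, the order turned, with 0.82 CPM in pDC replicate 1 at the former and 0.91 CPM in cDC replicate 1 at the latter. With TMM-adjusted library sizes the split was 236 to 49, and with all windows kept 153 to 68. Its relation to the larger repeat share of pDC replicate 2 was not tested.

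A test across all windows was run for the surroundings of the members, with the quasi-likelihood method of edgeR, cell type as the term and Benjamini-Hochberg adjustment at 0.05. All 226 members passed as higher in pDCs, where 8.48% of 60392 tested regions did and 6.29% were higher in cDCs, and nothing is read from this since the rule used the same contrast. Other regions within 50 kb of a member were more often higher in pDCs than regions in general. Of 988 such neighbours, 181 (18.3%) were higher in pDCs and 33 (3.34%) higher in cDCs, with a median log2 fold of 0.53. Over all 60166 regions that are not members the shares were 8.14% and 6.31% and the median 0.04. Within 10 kb 31.8% of 217 neighbours were higher in pDCs, and within 100 kb 14.7% of 1971. Around the cDC-restricted regions the picture was reversed, with 51 of 445 neighbours (11.5%) higher in cDCs and 11 higher in pDCs. These shares are descriptive, since the rule and the test share the libraries, and the difference between neighbours and other regions was not tested. With library-size scaling the median of all regions that are not members moved to -0.19 and that of neighbours to 0.48.

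The rest of a gene locus, after all windows of members had been taken out, was often higher in pDCs as well. Of 146 tested loci with a member (gene span plus 10 kb on both sides), 39 were higher in pDCs and 2 higher in cDCs, with a median log2 fold of 0.28. Over all 15227 loci 8.2% were higher in pDCs and 8.29% higher in cDCs, with a median of -0.01. Loci can share windows with neighbouring genes and are not independent. With cDC replicate 1 left out, 13 were higher in pDCs and 0 in cDCs, beside 395 and 352 of 15260 over all loci. With cDC replicate 2 left out the numbers were 20 and 1, beside 530 and 479 of 15270. Leaving out pDC replicate 1 gave 47 and 4, beside 1522 and 1471 of 15377, and leaving out pDC replicate 2 gave 56 and 11, beside 2520 and 2843 of 15381.

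Of the 7 listed genes, the rest of the locus was higher in pDCs at Dntt and Cd2. At Dntt the remaining windows summed to 21.8 and 15.4 CPM in pDCs against 6.17 and 7.15 CPM in cDCs, a log2 fold of 1.49 ± 0.33 (SE). At Cd2 they summed to 43.3 and 25.5 against 14.98 and 18.2 CPM, a log2 fold of 1.06 ± 0.28 (SE). The pDC libraries lay further apart at Cd2 than at Dntt. The Dntt call was lost without cDC replicate 1 (1.38), and the Cd2 call when either that library (0.93) or pDC replicate 1 (0.65) was left out. The other 5 were not called, with log2 folds of 0.35 ± 0.32 at Cebpb, 0.24 ± 0.20 at Ebf1, 0.17 ± 0.14 at Tbc1d8, 0.07 ± 0.16 at Cd8b1 and -0.19 ± 0.35 at Lat, which turned to 0.083 without cDC replicate 2. Without cDC replicate 1 Cebpb lay at 0.07, and without cDC replicate 2 at 0.70.

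Further loci, chosen after their values were seen, showed how wide this ranged. The rest of the Fcmr locus had 58.8 and 50.2 CPM in pDCs against 17.2 and 24.8 CPM in cDCs (log2 fold 1.38 ± 0.23). The rest of the locus of Il23r, the receptor gene for interleukin 23, had 20.5 and 23.0 against 4.86 and 6.09 CPM (1.99 ± 0.32). At Icos, a costimulatory receptor gene of T cells, it was 0.94 ± 0.21, and at Cd7, a surface receptor gene of T and NK cells, 1.09 ± 0.26. At Dtx1, a Deltex gene of the Notch pathway, it was 1.03 ± 0.30. The highest log2 folds of the rest were 2.50 ± 0.47 at Nos1, a nitric oxide synthase gene, 2.35 ± 0.41 at Ttc13 and 2.15 ± 0.23 at Ftdc1. The pDC libraries lay apart at Nos1 (19.6 and 7.60 CPM, against 1.92 and 2.90 CPM in cDCs). They also did at Ttc13 (27.3 and 11.5 against 4.15 and 3.48 CPM). Without pDC replicate 1 the log2 folds were 1.68 at Nos1, 1.62 at Ttc13 and 1.88 at Ftdc1. Without pDC replicate 2 they were 3.01, 2.83 and 2.39. Calls at Icos (0.83), Cd7 (1.12) and Dtx1 (1.18) ended without cDC replicate 1, those at Cd7 (1.05) and Dtx1 (0.88) also without cDC replicate 2, and that at Dtx1 (0.60) without pDC replicate 1.

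Among the loci with 3 members, the rest of the locus had a log2 fold of 0.42 ± 0.11 at Tenm4 and 0.38 ± 0.10 at Dym, both called higher in pDCs, and 0.19 ± 0.09 at Nav2, not called. The 2 loci higher in cDCs outside their members were Niban1 (-0.46 ± 0.12) and Clic5, a chloride channel family gene (-0.58 ± 0.13). In Clic5 the remaining windows summed to 133 and 161 CPM for pDCs, below the 216 and 225 CPM of the cDC libraries, so a pDC-restricted site stood in a locus with more PU.1 in cDCs. The calls at Tenm4 (0.43 and 0.40), Dym (0.39 and 0.36), Niban1 (-0.41 and -0.51) and Clic5 (-0.61 and -0.56) ended when either cDC library was left out, replicate 1 and replicate 2 in that order. Nav2 was called without pDC replicate 1 (0.22).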

How the data were processed

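Deposited values were whole-number read counts per 10 bp window on a 50 bp grid, with no normalisation by the authors, for 329996 windows. The submitters' processing notes name Subread 1.4.4 and the build mm10. How reads were extended and filtered and windows chosen: not given in the sources used here. A read can be counted in neighbouring windows, and the sequencing depth is unknown. All 5 sample files equalled the table of the series. The members and gene lists were chosen with earlier results of these data known.

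Columns were scaled to CPM without the 146 windows of 1000 or more input counts. Windows passing filterByExpr (minimum count 10) were fitted with edgeR 4.0.16 (R 4.3.3, limma 3.58.1), with TMM factors, and window p-values were combined per region by the Simes method. The biological coefficient of variation was 0.158. The window test was checked on simulated counts. SEs are those implied by the F statistic. Gene spans and promoters were from RefSeq GRCm38.p6. The gene table gives spans without strand, exon or UTR, and the promoter table (250 bases before to 50 after a start) had no entry for chromosome 18.

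Named members are the 15 highest by the smaller pDC CPM, those within 10 kb of a listed gene, loci with 3 members, the 3 widest, and those next to a threshold. Alternatives were other CPM limits, merging distances, scalings, no filter, DESeq2 1.42.0, a replicate block and leaving out each library. Each group has 2 libraries, so an exact permutation test could not reach 0.05 and none was run.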

Additional observations from a re-analysis of the deposited data

How the results depend on the processing

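The number of regions nearly exclusive to pDCs depended on the limits: 226 became 667 at 3 CPM, 42 at 6 CPM and 12 at 8 CPM in pDCs, and 49 at 0.5 CPM and 904 (865 for the reverse set) at 2 CPM in cDCs. With every window of a region at 1 CPM or less in cDCs it was 100. Merging at 50 or 200 bp left it at 226. Leaving out libraries gave between 302 and 1131, the highest without replicate 2 of both cell types and 488 without replicate 1 of both. Neighbours within 50 kb called in either direction, 214 of 988, became 57 with DESeq2 (5.36% higher in pDCs, against 2.01% of all regions that are not members). They were 73 of 217 within 10 kb, 374 of 1971 within 100 kb, and between 74 (6.82% higher in pDCs against 2.47%, without cDC replicate 1) and 314 (23.6% against 12.2%, without pDC replicate 2) when single libraries were left out. The 41 called loci became between 13 and 67 without single libraries and 106 with flanks of 50 kb. With the replicate block, 232 neighbours and 45 loci were called, beside 8.61% of all regions that are not members higher in pDCs. Across windows, deviations of libraries with the same number correlated at 0.02. Counting noise enters these deviations, so the value cannot tell whether libraries with the same number share an origin. For 20 named loci, 141 of 160 alternative values kept direction and side of the threshold, 17 lost the call, 1 gained it and 1 changed sign. The last was Lat, not called, which ran from -0.42 without cDC replicate 1 to 0.083 without cDC replicate 2. The causes were not tested. Lowest counts of 30 and 23 in the pDC libraries limit each site, and a fit without a library of a cell type takes that cell type's spread from the other.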
